A study of Mus musculus with 22 samples.

Results

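8 genes of the mouse α-arrestin and glucose-sensing group were followed across RNA-Seq and ribosome profiling (Ribo-Seq) data from cortical neural stem cells (NSCs). The members are the α-arrestins Txnip, Arrdc1, Arrdc2, Arrdc3 and Arrdc4, the transcription factors Mlxip and Mlx, and the glucose transporter gene Slc2a1. They were chosen by gene symbol, as 8 of 22623 genes in the RNA-Seq files, because Txnip and Arrdc4 mRNA is lower when Musashi 1 (Msi1) is induced. The tetO-Msi1 values below are therefore a description of what chose the group, and no test is given for a member in that contrast.

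The study asked which mRNAs the RNA-binding proteins Msi1 and Msi2 act on, by raising or removing them in NSCs from embryonic mouse cortex. All lines came from mice of the 129SvJae strain, per the methods, and were grown with EGF, bFGF and laminin. In the inducible lines, doxycycline (Dox, 1 μg/ml, 72 h) turns on a tetO-Msi1 or tetO-Msi2 transgene, and the KH2 line, the control, carries no Msi transgene and received the same Dox. For RNA-Seq, the 3 tet lines were taken with and without Dox at embryonic stage E12.5, tetO-Msi1 also with and without Dox at E13.5, and KH2 without Dox at E13.5. In the floxed lines both Msi1 and Msi2 carry loxP sites. C4 also carries a Cre recombinase activated by 4-hydroxytamoxifen (4-OHT, 48 h), and C1 is the Cre-less control that received the same 4-OHT, both at E12.5. Ribosome footprints were taken at E12.5 from all of these lines but tetO-Msi2, each with and without its agent. Each condition had 1 library, except untreated tetO-Msi1 at E13.5, where 2 technical replicates were summed. Each group is thus 1 cell line, and lines and stages serve as the only repeats. The name of a line stands for its genotype, since the E12.5 and E13.5 cells were derived from embryos of different ages. The p-values below rest on the spread between them, which the fits share over genes. In the Dox fits (tetO-Msi1, and KH2 with tetO-Msi2) this sharing was complete, with infinite prior degrees of freedom. Their p-values therefore do not measure a gene's own spread between lines or stages.

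Txnip and the other α-arrestins share the arrestin fold. Txnip binds thioredoxin and promotes internalization of the glucose transporters encoded by Slc2a1 and Slc2a4, which limits glucose uptake, and Arrdc4 acts in a similar way. Transcription of Txnip and Arrdc4 is switched on when glucose phosphates rise, through the MondoA protein encoded by Mlxip, which binds carbohydrate response elements (a pair of E-box-like sites a few bases apart) together with its partner Mlx.

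The promoters of Txnip and Arrdc4 are shown because glucose is known to act on both genes through such paired sites. Both are the 250 bases before the RefSeq start in build GRCm38.p6, 5′ to 3′ on the gene's strand: Txnip at chr3:96557707-96557956 (+) and Arrdc4 at chr7:68749239-68749488 (−). Capitals mark the E box CACGTG, a pair of imperfect E boxes, CACGNG or CNCGTG, 5 bases apart, and the CCAAT box on either strand (CCAAT or ATTGG).
Txnip: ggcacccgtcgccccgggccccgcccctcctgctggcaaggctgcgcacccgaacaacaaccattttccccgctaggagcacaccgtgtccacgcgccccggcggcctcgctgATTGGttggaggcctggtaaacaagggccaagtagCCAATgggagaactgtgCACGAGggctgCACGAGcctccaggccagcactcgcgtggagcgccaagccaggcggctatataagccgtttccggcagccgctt
Arrdc4: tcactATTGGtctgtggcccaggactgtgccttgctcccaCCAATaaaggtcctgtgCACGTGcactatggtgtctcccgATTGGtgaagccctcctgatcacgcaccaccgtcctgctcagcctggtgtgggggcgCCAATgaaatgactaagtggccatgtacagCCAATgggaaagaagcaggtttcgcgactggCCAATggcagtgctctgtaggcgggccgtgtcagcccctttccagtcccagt
The Txnip stretch holds 2 imperfect E boxes 5 bases apart, from 85 to 69 bases before the start, and 2 CCAAT boxes further upstream. Such a pair was found in 23 of 26994 promoter windows of the same length (0.0852%, 1 window a gene, 250 bases before to 50 after the start), and a pair of perfect CACGTG boxes at that spacing was found in 0 of them. This imperfect form was chosen after the Txnip promoter had been seen. The Arrdc4 stretch holds no such pair in either form. It holds 1 CACGTG, 193 to 188 bases before the start, and 6 CCAAT boxes. CACGTG was found in 7.24% of windows and at least 1 CCAAT box in 37.9%, and 20 of 26994 windows (0.0741%) held 6 or more CCAAT boxes. The limit of 6 is the count in Arrdc4 itself, so nothing is read from this share. Of the other members, only Mlx had a CACGTG in its window. Slc2a1 had neither an E box nor such a pair in the window of its RefSeq start. A match in these windows is a description of the letters and not a measured binding site.

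**Figure D1:**
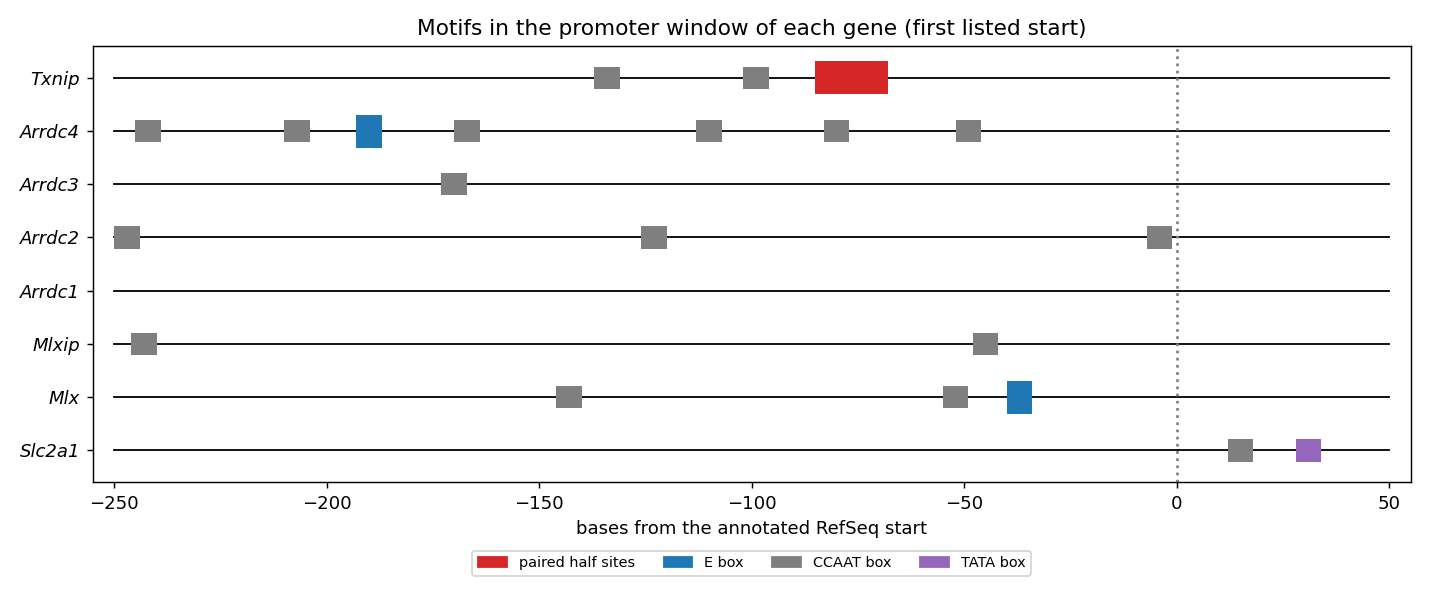
Motifs in the promoter window of each gene, with bases from the annotated RefSeq start on the x axis (first listed start of each gene). Txnip has the only pair of imperfect E boxes (drawn as paired sites), Arrdc4 and Mlx have 1 E box each, and Arrdc4 has 6 CCAAT boxes.

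In the annotation of build NCBIM37 (mm9, the build of the deposited files), Txnip lies at chr3:96361880-96365806 (+), Arrdc4 at chr7:75881931-75894127 (−), Arrdc3 at chr13:81022645-81035296 (+), Arrdc2 at chr8:73359054-73363619 (−) and Arrdc1 at chr2:24780872-24790772 (−). Mlxip lies at chr5:123844807-123915306 (+), Mlx at chr11:100948591-100953521 (+) and Slc2a1 at chr4:118781316-118809935 (+). Each of the promoter windows matched NCBIM37 exactly at 1 place. Musashi proteins bind UAG motifs in 3′ UTRs. The longest annotated 3′ UTR of Txnip (1354 nt) held 14 TAG, or 10.3 per kb, and that of Arrdc4 (2432 nt) held 33, or 13.6 per kb. The median over 18458 genes was 11.2 per kb, which puts Txnip at percentile 42.7 and Arrdc4 at percentile 70.5. The other 6 members ranged from percentile 13.6 (Arrdc1) to 61.4 (Mlx), so no member lay above percentile 70.5.

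RNA-Seq depth was 7889966 to 60791605 counted reads per condition, and Ribo-Seq depth 657288 to 6381242 counted footprints. The 10 most counted genes took 5.97 to 77.6% of the footprints, most in untreated KH2. As the check of the targeted genes, Msi1 mRNA was 19.7 RPKM (reads scaled to the counted length and the library's mapped reads) without and 108 with Dox in tetO-Msi1 cells at E12.5, and 50.5 and 208 at E13.5. Msi2 mRNA went from 23.2 to 128 RPKM in tetO-Msi2 cells and from 39.5 to 4.54 in C4 with 4-OHT, while Msi1 mRNA in C4 was 9.46 and 9.42 RPKM over the exons counted. The 7 neural stem markers in the files (Nes, Sox2 and others) were above 1 RPKM in all 13 conditions, summing to 1946 to 5644. The 3 microglial markers were under 0.1 RPKM in all conditions, and no mesenchymal or endothelial marker reached 1 RPKM. Of the 5 neuronal markers in the files, 1 or 2 reached 1 RPKM in each tet condition and 4 in each floxed condition. Neurod6 was under 0.1 RPKM throughout, and the neuronal markers summed to 4.46 to 14.6 RPKM. Glial markers summed to 248 to 344 RPKM in the tet lines at E12.5, to 660 to 986 in those at E13.5 and to 836 to 991 in the floxed lines. The neural stem sums differed likewise, at 1946 to 2637, 4855 to 5020 and 5147 to 5644 RPKM in the same order of sets. These sums hold the shift of RPKM between sets given next, so no difference in glial content is read from them. The part of glial content in the differences between these sets below was not tested. The deposited RPKM were shifted as a whole between sets, by a median log2 of 0.94 from E12.5 to E13.5 and of 1.02 from tet to floxed lines. Levels of the members across sets are therefore given as CPM (read counts scaled to library size) after scaling by the trimmed mean of M values (TMM). Their RPKM ratios are taken within a line and stage, or between lines of the same set given the same agent. RPKM also enters across sets in the lowest Arrdc4 condition, the Mlxipl range and the Pearson rankings below.

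Txnip mRNA was lower with Dox in every tet line measured, and most in tetO-Msi1. In tetO-Msi1 cells it was 30.0 RPKM without and 14.6 with Dox at E12.5, a log2 ratio of -1.04 (95% interval -1.16 to -0.92). At E13.5 the technical replicates of the untreated sample gave 13.7 and 13.4 RPKM and the treated one 5.33, a log2 ratio of -1.34 (-1.46 to -1.23). The intervals here and below come from read counts and cover counting error only. The Txnip value stood at percentile 0.167 of the changes of 10180 genes at E12.5 and at percentile 0.0935 of 10700 at E13.5. These tetO-Msi1 values, also within the differences from KH2 below, are those that chose the group, so nothing is read from the ranks. In KH2 cells, which have no Msi transgene, Txnip was 23.5 RPKM without and 17 with Dox, a log2 ratio of -0.47 (-0.56 to -0.37). In tetO-Msi2 cells it was 19.8 and 16.3 RPKM, a log2 ratio of -0.28 (-0.39 to -0.18). The tetO-Msi1 change at E12.5 exceeded that of KH2 by -0.57 on the log2 scale (-0.72 to -0.41), while the tetO-Msi2 change was smaller than that of KH2 by 0.19 (0.05 to 0.33). Set against KH2 with Dox in place of its own untreated library, tetO-Msi1 with Dox differed in Txnip by only -0.22, since the untreated tetO-Msi1 library was the highest of the untreated ones.

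Arrdc4, the closest relative of Txnip in glucose response, went the same way. In tetO-Msi1 cells Arrdc4 was 6.59 RPKM without and 3.39 with Dox at E12.5, a log2 ratio of -0.96 (-1.20 to -0.72), and 5.89 and 1.93 RPKM at E13.5, a log2 ratio of -1.61 (-1.79 to -1.43). In KH2 cells it was 5.59 and 4.35 RPKM, and in tetO-Msi2 cells 4.20 and 3.20 RPKM, log2 ratios of -0.36 and -0.39. At E13.5 the induced tetO-Msi1 library was the lowest of the 13 conditions, while at E12.5 it lay beside tetO-Msi2 with Dox. The tetO-Msi1 change at E12.5 exceeded that of KH2 by -0.60 on the log2 scale (-0.90 to -0.30). With 0.5 RPKM added to each value, Txnip (-1.01) was the only one of the 7 members with a mean of at least 1 RPKM to be at least 2-fold lower at E12.5, against 0.187% of 10180 genes, and Arrdc4 was just outside (-0.87). At E13.5 Txnip and Arrdc4 were at least 2-fold lower, against 0.374% of 10700 genes. Since Txnip and Arrdc4 chose the group, nothing is read from these counts.

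The remaining arrestins did not move with them. Arrdc3, an adaptor for β-adrenergic receptor and other cargo ubiquitination, was 21.8 RPKM without and 20.5 with Dox in tetO-Msi1 cells at E12.5 and 28.5 and 31.9 at E13.5. Arrdc2 was 3.22 and 3.26 RPKM at E12.5, and 4.01 and 7.31 at E13.5, a log2 ratio of 0.87 (0.71 to 1.02). Arrdc2 at E13.5 was therefore higher where Txnip and Arrdc4 were lower. Arrdc1, which recruits ESCRT proteins to the plasma membrane for vesicle budding, had only 3 to 21 reads per condition on the 78 nt counted, too few for any comparison, and passed no filter on low counts.

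Mlxip and Mlx, the factors that act on Txnip and Arrdc4, differed less with Msi1 than Txnip and Arrdc4 did. Mlxip was 2.76 RPKM with and without Dox at E12.5, and 4.59 and 5.65 at E13.5, a log2 ratio of 0.30 (0.15 to 0.45). Mlx was 9.73 and 7.51 RPKM at E12.5, a log2 ratio of -0.37 (-0.64 to -0.11), and 15.6 and 14.9 at E13.5, where the interval of the ratio spanned 0 (-0.18 to 0.06). Mlxipl, which encodes the related factor ChREBP, was at 0.0316 to 0.641 RPKM over all 13 conditions.

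Slc2a1, which encodes the glucose transporter GLUT1 that Txnip and Arrdc4 act on, went the other way from them. It was 27.5 RPKM without and 37.0 with Dox in tetO-Msi1 cells at E12.5, a log2 ratio of 0.43 (0.35 to 0.50), and 10.4 and 20.7 RPKM at E13.5, a log2 ratio of 1.00 (0.92 to 1.07). In KH2 cells it was 36.2 and 40.2 RPKM, and in tetO-Msi2 cells 41.0 and 45.0 RPKM, log2 ratios of 0.15 and 0.14. The tetO-Msi1 change at E12.5 exceeded that of KH2 by 0.28 (0.18 to 0.37). The untreated tetO-Msi1 library was the lowest of the E12.5 tet libraries in Slc2a1, and against KH2 with Dox the induced library was slightly lower (-0.12).

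**Figure D2:**
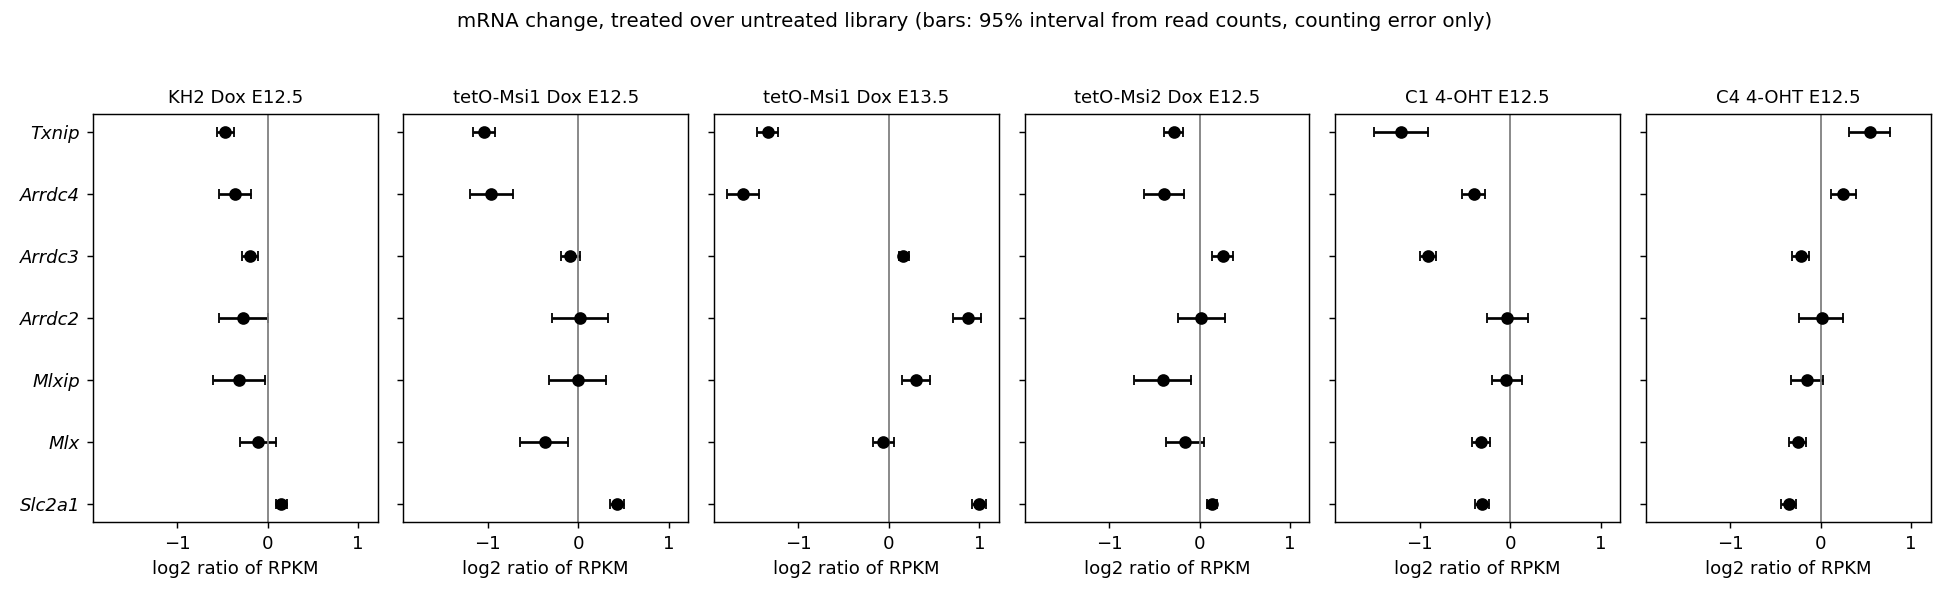
Log2 ratio of mRNA RPKM, treated over untreated library, for 7 members in the 6 pairs (x axis, bars for the 95% counting interval). Txnip and Arrdc4 lie left of 0 in all pairs but C4, farthest in tetO-Msi1 among the Dox pairs, where Slc2a1 lies right of 0.

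In a fit over both tetO-Msi1 stages with stage as a block (edgeR), given for the members as a description, the log2 change with Dox was -1.23 for Txnip (SE 0.16), -1.35 for Arrdc4 (SE 0.19) and 0.66 for Slc2a1 (SE 0.15). With the KH2 response at E12.5 subtracted, these were -0.80, -1.02 and 0.48, in the same directions. Mlxip was at 0.11 before and 0.39 after this subtraction, and Mlx at -0.28 and -0.20. KH2 had no Dox library at E13.5, so its E12.5 response was subtracted at both stages. The E13.5 changes thus have no Dox control of their own stage. The other genes of the pathway gave few calls in this fit. Of 11938 genes, 1.78% were higher and 1.82% lower with Dox at an adjusted p under 0.05. These calls are without the KH2 response subtracted. With it subtracted, 9 genes in all were called, against 430. Of 12 tested genes for glucose uptake and entry into glycolysis, 1 was higher (Slc2a10, log2 change 1.23, SE 0.28, adjusted p = 0.0013) and 1 lower (Slc2a3, the neuronal-type glucose transporter, -0.67, SE 0.16, adjusted p = 0.00219). Of 11 genes of the MYC/MAX/MLX network, to which Mlx belongs, 1 was higher (Mycn, 0.54, SE 0.17, adjusted p = 0.039). With Dox in KH2 and tetO-Msi2, Slc2a10 was at 0.27, Slc2a3 at -0.19 and Mycn at -0.11, none of them called. None of 14 thioredoxin system genes, 11 ubiquitin ligase and ESCRT genes, 7 AMPK subunit and kinase genes or 2 other arrestins was called by edgeR. The list medians lay between -0.04 and 0.26, beside -0.01 over all genes, the 0.26 being that of the 2 other arrestins.

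KH2 and tetO-Msi2 cells, which played no part in choosing the members, were tested together for the response to Dox without Msi1 induction. Txnip fell (log2 change -0.37, SE 0.10, adjusted p = 0.0439), to 0.773 of its level, as 1 of 7 members tested, against 0.450% of 11786 genes lower and 0.365% higher. That call was lost under all 8 alternatives run (adjusted p 0.0748 to 1), with the log2 change between -0.43 and -0.31 in all of them. Arrdc4 had the same change, -0.37, with a larger error (SE 0.14, adjusted p = 0.298). Mlxip was at -0.35 (SE 0.18, adjusted p = 0.577), and Arrdc2, Arrdc3, Mlx and Slc2a1 were between -0.13 and 0.15. Of the tested genes of the 6 pathway lists, only Prdx1, a thioredoxin peroxidase, passed (0.40, SE 0.10, adjusted p = 0.0124).

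In the floxed lines, 4-OHT was followed by opposite Txnip values in C1 and C4. Txnip was 2.28 RPKM without and 0.987 with 4-OHT in Cre-less C1, a log2 ratio of -1.21 (-1.50 to -0.91), and 2.09 and 3.04 RPKM in C4, where Msi2 mRNA is lost, a log2 ratio of 0.54 (0.31 to 0.77). The C4 change exceeded that of C1 by 1.74 (1.37 to 2.12). Arrdc4 showed the same order. It was 7.56 and 5.72 RPKM in C1, a log2 ratio of -0.40 (-0.53 to -0.28), and 5.50 and 6.54 RPKM in C4, a log2 ratio of 0.25 (0.11 to 0.39), a difference of 0.65 (0.47 to 0.84). Both genes were thus lower with 4-OHT without Cre and higher with Cre. With 1 library per condition the difference between lines was not tested beyond counting error, and line and Cre cannot be told apart.

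Arrdc3 was lower with 4-OHT in both floxed lines. Its mRNA was 17.5 RPKM without and 9.32 with 4-OHT in C1, and 13.8 and 11.9 in C4, log2 ratios of -0.91 and -0.22. With 0.5 RPKM added, Txnip (-0.90) and Arrdc3 (-0.87) were the members nearest to a 2-fold decrease in C1, which 0.0822% of 10946 genes reached. In the edgeR fit over both lines with line as a block, Arrdc3 (log2 change -0.60, SE 0.13, adjusted p = 0.0357) and Slc2a1 (-0.37, SE 0.08, adjusted p = 0.032) fell. These were 2 of 7 members tested, against 2.36% of 11626 genes lower and 3.14% higher. Without C1 or without C4, in a fit of all RNA libraries that assumes the lone pair to vary like the others, neither was called (adjusted p 0.119 to 1). Slc2a1 was 16.9 and 13.6 RPKM in C1 and 13.4 and 10.5 in C4, so it was lower in both. Mlx was 32.4 and 25.9 RPKM in C1 and 32.7 and 27.4 in C4 (log2 change -0.32, SE 0.08, adjusted p = 0.0605). Txnip had a log2 change of -0.32 with an SE of 0.33 (adjusted p = 0.665), with the lines on opposite sides of 0.

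Among the pathway genes in the 4-OHT fit, Hk2, a hexokinase, rose (0.50, SE 0.09, adjusted p = 0.0153), and Slc2a3 (-0.51, SE 0.08, adjusted p = 0.0118) and Pfkfb3 (-0.44, SE 0.08, adjusted p = 0.0178) fell, 3 of 11 tested genes for glucose uptake and entry. Mxd3 of the MYC/MAX/MLX network (0.77, adjusted p = 0.0293) and Txn1, the thioredoxin that Txnip binds (0.42, adjusted p = 0.0462), rose. Prkab2, an AMPK subunit, fell (-0.74, adjusted p = 0.0129). None of 12 ligase and ESCRT genes and 2 other arrestins was called.

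For Txnip and Slc2a1 the differences between sets of lines and stages were larger than those with treatment, while for Arrdc4 the tetO-Msi1 change at E13.5 (-1.61) was larger than those between sets (-0.78 by stage and -0.83 by line type). On the TMM scale, Txnip was at 125, 162 and 107 CPM in untreated KH2, tetO-Msi1 and tetO-Msi2 cells at E12.5. It was at 37.1 and 39.8 CPM in untreated KH2 and tetO-Msi1 cells at E13.5, and at 5.73 and 5.40 CPM in untreated C1 and C4. The 3 sets did not overlap in Txnip, but the share of all genes of which this holds was not computed. Differences between sets were common, with 25.2% of 11893 genes lower and 25.6% higher by stage. By line type, 33.3% of 12211 genes were lower and 33.0% higher. Slc2a1 was at 255, 198 and 297 CPM in the tet lines at E12.5, at 45.5 and 41.0 CPM at E13.5, and at 56.6 and 46.2 CPM in the floxed lines.

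Between stages, 5 of the 7 members tested fell from E12.5 to E13.5 and 0 rose, against 25.2% of 11893 genes lower and 25.6% higher (edgeR, untreated KH2 and tetO-Msi1, line as a block). The log2 change was -2.39 for Slc2a1 (SE 0.12, adjusted p = 1.36e-07), to 0.190 of its level, and -1.91 for Txnip (SE 0.12, adjusted p = 1.13e-06). It was -0.78 for Arrdc4 (SE 0.16, adjusted p = 0.00248), -0.76 for Arrdc2 (SE 0.19, adjusted p = 0.00683) and -0.70 for Arrdc3 (SE 0.13, adjusted p = 0.00105). Within a single genotype, Txnip differed by -2.06 in tetO-Msi1 and -1.76 in KH2, and Arrdc4 by -1.07 and -0.47. These values have no test, and the Arrdc4 change was larger in tetO-Msi1. Mlxip (-0.14, adjusted p = 0.517) and Mlx (-0.17, adjusted p = 0.334) were not called. The untreated tetO-Msi1 libraries are shared with the contrast that chose the group. Stage cannot be told apart from the embryos the cells came from, or from the preparation of the E13.5 libraries.

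Of 12 tested genes of glucose uptake and entry, 6 fell between stages, 1 rose and 5 were not called, with a median of -0.56 beside 0.01 over all genes. Slc2a3 (-3.09), Slc2a4 (-2.18), the transporter regulated by insulin, and Hk2 (-1.93) fell the most, with adjusted p of 3.62e-08, 0.000641 and 6.51e-07. G6pc3, a glucose-6-phosphatase, rose by 0.35 (adjusted p = 0.028). In the MYC/MAX/MLX network, Mlxipl (-1.12), Mxi1 (-1.11) and Mycl1 (-0.83) fell, with adjusted p of 0.00821, 2.84e-05 and 0.000183, and Myc (1.46) and Mycn (0.58) rose, with adjusted p of 5.57e-06 and 0.0023. In all, 5 of 11 of these genes were lower and 2 higher. Mlxipl had only 38 to 187 reads in the libraries of this test. The thioredoxin system was split, with 4 of 14 lower, led by Glrx (-1.31, adjusted p = 1.87e-05), and 3 higher, led by Txnrd1, a thioredoxin reductase (0.98, adjusted p = 3.59e-05). Ligases and ESCRT genes gave 2 lower and 2 higher of 11, AMPK genes 1 lower of 7, and the other arrestins none of 2.

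The floxed lines differed from the tet lines of the same stage in 6 of 7 members tested (edgeR, untreated, lines as repeats). Txnip was lower by a log2 of -4.57 (SE 0.22, adjusted p = 2.41e-05), or 23.7-fold. Slc2a1 was lower by -2.29 (SE 0.20, adjusted p = 0.000132), Arrdc2 by -1.43 (SE 0.16, adjusted p = 0.000344), Arrdc3 by -1.39 (SE 0.27, adjusted p = 0.0037) and Arrdc4 by -0.83 (SE 0.22, adjusted p = 0.0143). Mlx was higher by 0.57 (SE 0.10, adjusted p = 0.00223), and Mlxip was at -0.26 (SE 0.14, adjusted p = 0.142). These 5 lower and 1 higher stand against 33.3% of 12211 genes lower and 33.0% higher. Without the tetO-Msi1 library, which also served to choose the group, Txnip was at -4.39 and Arrdc4 at -0.67, both still called (adjusted p = 0.000229 and 0.0416). Without C4, Arrdc4 was at -0.61 and was not called (adjusted p = 0.101). The experiment and the type of line cannot be told apart here.

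**Figure D3:**
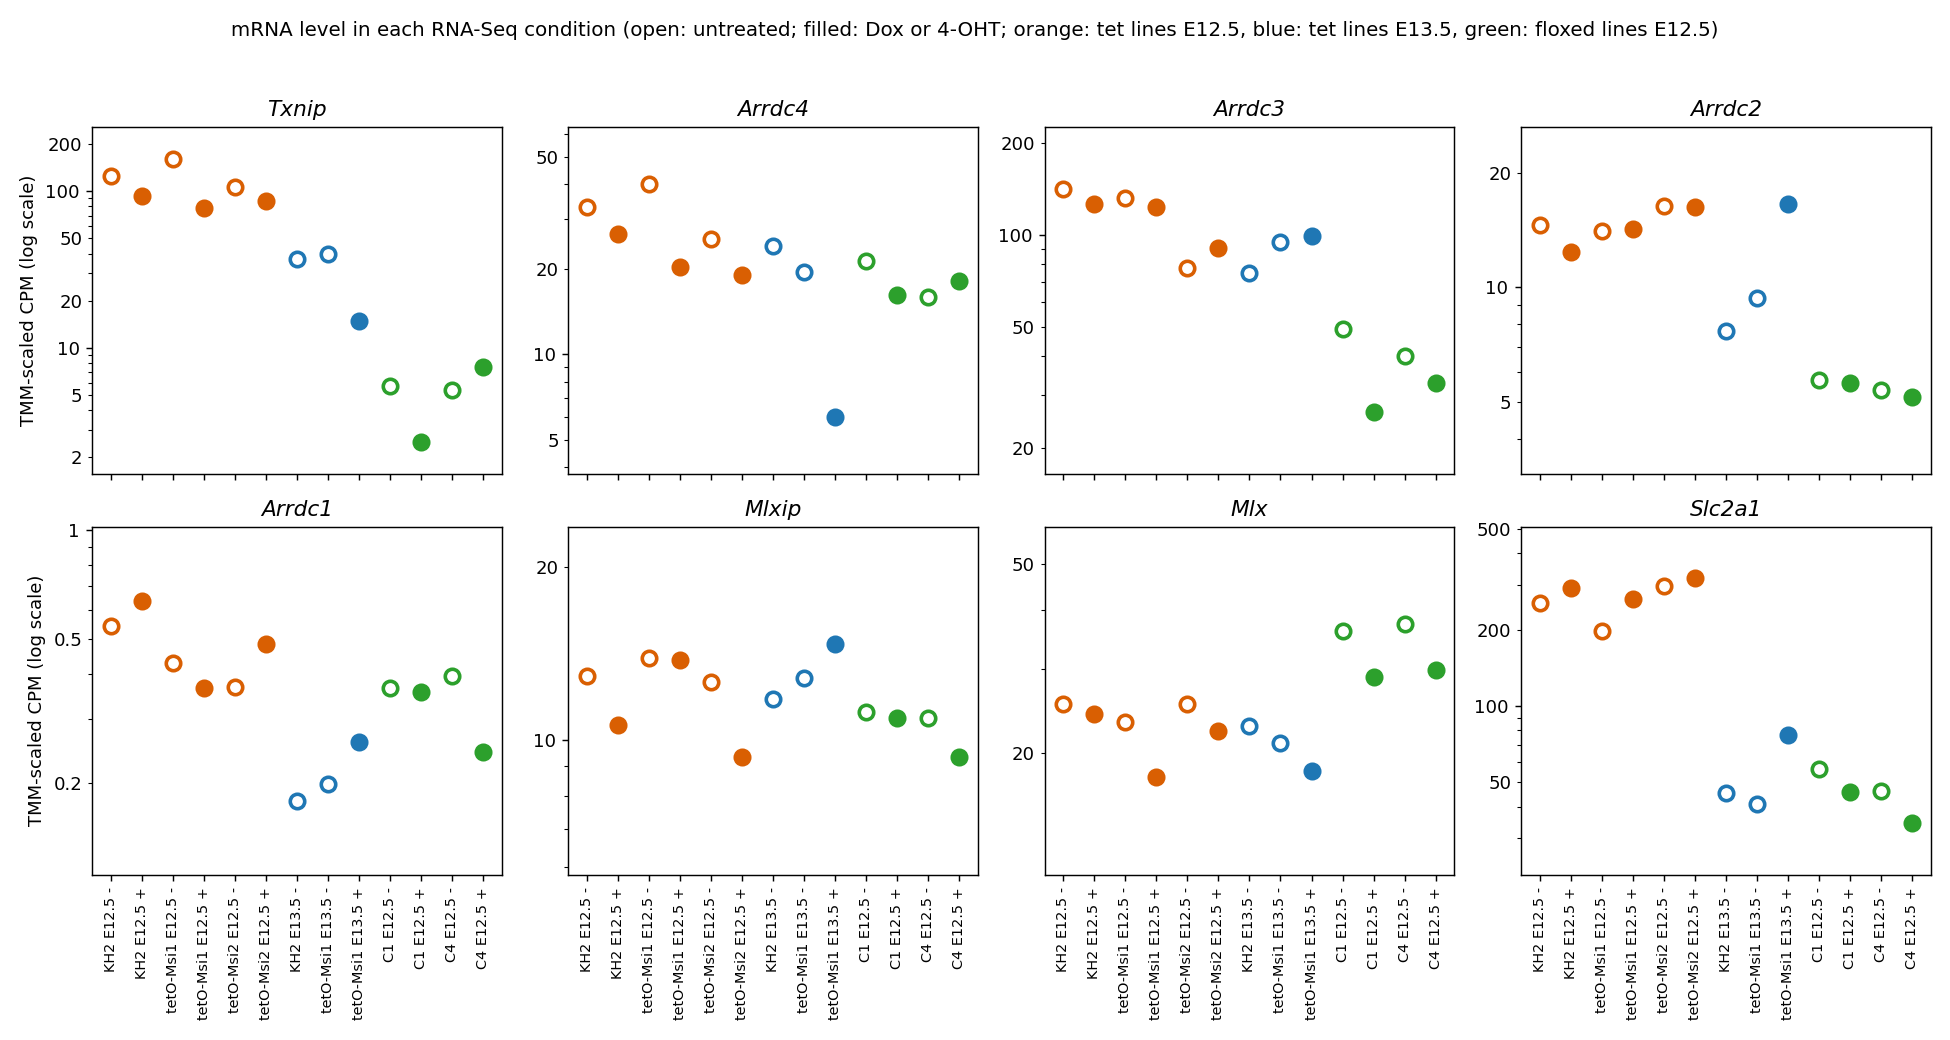
TMM-scaled CPM (log scale) of each member in the 13 RNA-Seq conditions (x axis, minus for untreated and plus for Dox or 4-OHT), 1 point per condition. Txnip was at 78.5 to 162 CPM in the tet lines at E12.5, 14.8 to 39.8 CPM in those at E13.5 and 2.49 to 7.50 CPM in the floxed lines.

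**Figure D4:**
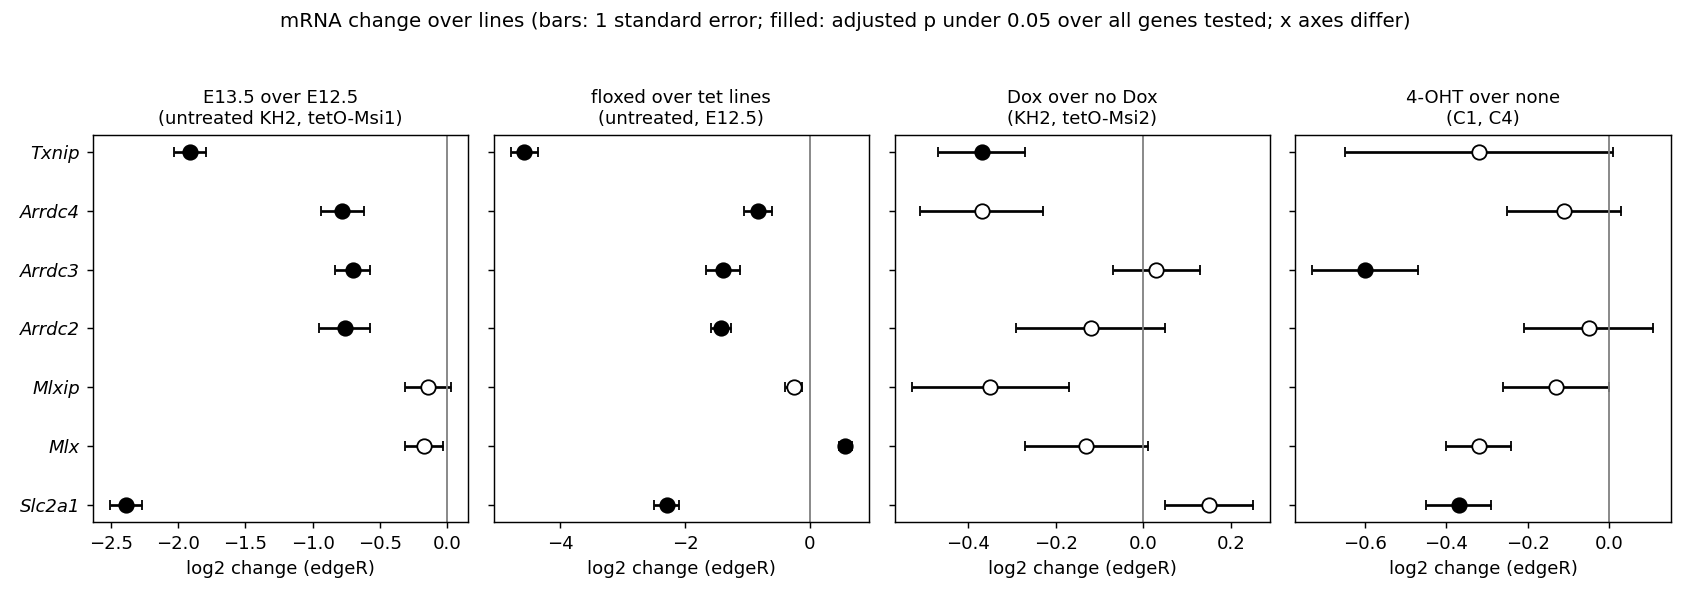
Log2 change of mRNA (x axis, edgeR, bars for 1 SE) of 7 members in 4 tests over lines, with filled points for an adjusted p under 0.05. The stage and line-type panels reach -2.39 and -4.57, while no Dox or 4-OHT value passes -0.60.

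The pathway lists were split between line types, where the share of all genes called is high in each direction. More genes were lower than higher in 2 of the 6 lists and more were higher in the other 4. Of 12 genes of glucose uptake and entry, 8 were lower, led by Slc2a10 (-4.01), Slc2a4 (-3.87) and Hk2 (-2.51), and 2 higher (G6pc3, 0.81, and Pfkfb3, 0.48). Of 11 MYC/MAX/MLX genes, 7 were lower, led by Mlxipl (-3.34), Mxd1 (-3.05) and Mycl1 (-2.89), and 2 higher (Myc, 3.27, and Max, 0.97). Mlxipl had only 24 and 17 reads in untreated C1 and C4. Of 14 thioredoxin system genes, 8 were higher, led by Srxn1 (4.86), Txnrd3 (1.80) and Txnrd1 (1.43), and 3 lower (Glrx, -2.28, Txn1, -1.39, and Prdx5, -0.39). Of 12 ligase and ESCRT genes, 7 were higher and 4 lower, with Hecw2 (2.81) and Nedd4l (-0.79) at the ends. AMPK genes gave 3 higher of 7, led by Prkab1 (1.32), and both other arrestins were higher (Arrb1, 1.25, and Arrb2, 0.67). All genes named here had an adjusted p of 0.0109 or less by edgeR.

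Across the 13 conditions, Txnip mRNA ranged 65.1-fold on the TMM scale, from 2.49 CPM in C1 with 4-OHT to 162 CPM in untreated tetO-Msi1 at E12.5. The range was 9.25-fold for Slc2a1, 6.63-fold for Arrdc4 and 5.36-fold for Arrdc3, and 1.58- to 3.56-fold for the other 4 members. Neighbours in this order do not all differ beyond counting error or between lines: untreated C1 and C4 (5.73 and 5.40 CPM) were side by side, and so were untreated KH2 and tetO-Msi1 at E13.5 (37.1 and 39.8 CPM). Of 10072 genes with a mean of at least 1 RPKM and a range of at least 2-fold, the 5 most like Txnip by Pearson r of log2(RPKM + 0.5) were Angptl2 (0.960), Ccng2 (0.956), 1700088E04Rik (0.955), Apcdd1 (0.951) and Btg1 (0.947). The 5 most like Arrdc4 were Hist1h1c (0.880), Snx3 (0.814), Clcn5 (0.805), Cd200 (0.780) and Angpt1 (0.769). These rankings rest on RPKM, with its shift between sets, and the scale changed the values among the members. The r of Txnip was -0.14 with Arrdc4, 0.65 with Slc2a1, 0.53 with Arrdc3 and -0.86 with Mlx in RPKM. On the log2 TMM scale, added after the data were seen, it was 0.56 with Arrdc4, 0.81 with Slc2a1, 0.90 with Arrdc3 and -0.60 with Mlx. These are descriptions over 13 conditions of 5 lines, which share lines and sets.

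Footprints, which mark ribosomes on coding sequence, were numerous enough only for Txnip and, in part, Mlx. Footprint counts of Txnip were 129 without and 77 with Dox in KH2, 418 and 67 in tetO-Msi1, 63 and 15 in C1 without and with 4-OHT, and 66 and 9 in C4. In RPKM, Txnip footprints were 9.10 and 5.10 in KH2 and 11.4 and 6.11 in tetO-Msi1. The log2 ratios were -0.84 (-1.24 to -0.43) and -0.90 (-1.27 to -0.52), so footprints were lower with Dox in both lines, by a like amount. Translational efficiency (TE), the footprint RPKM over the mRNA RPKM, of Txnip was 0.387 and 0.300 in KH2 and 0.379 and 0.418 in tetO-Msi1. The change in TE with Msi1 was 0.14 on the log2 scale (-0.25 to 0.53), and its difference from that in KH2 was 0.51 (-0.06 to 1.08), so a TE change of Txnip with Msi1 was not detectable at this depth. Fewer mRNA molecules per cell and fewer cells with them cannot be told apart in these bulk samples.

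In the floxed lines Txnip TE was 0.946 without and 0.569 with 4-OHT in C1, and 0.975 and 0.101 in C4. Footprint RPKM were 2.15 and 0.562 in C1 and 2.04 and 0.306 in C4, lower in both. The TE of all genes also moved, the library median being 0.572 and 0.213 in C1 and 0.151 and 0.130 in C4. Relative to the median, Txnip went from 1.65 to 2.67 times it in C1 and from 6.43 to 0.777 times it in C4, that is from percentile 96.2 to percentile 34.0 of genes in C4. The log2 change in TE in C4 was -3.27 (-4.30 to -2.24), or -3.04 after centring on the median, and in C1 it was -0.73 (-1.60 to 0.13), or 0.72 after centring. The C4 change differed from the C1 change by -2.54 (-3.88 to -1.20) as deposited, by counting error only, and rests on 9 footprints in C4 with 4-OHT.

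**Figure D5:**
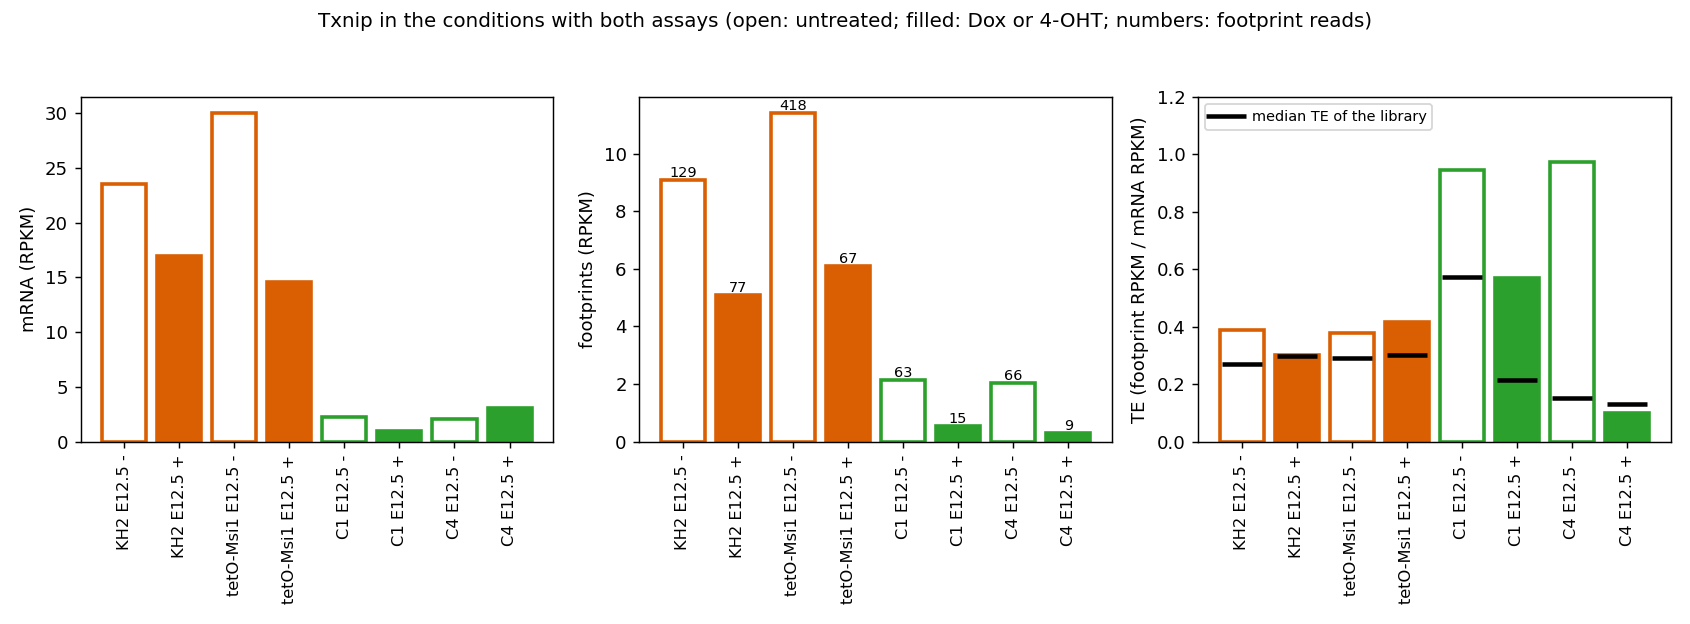
Txnip mRNA RPKM, footprint RPKM and TE (y axes) in the 8 conditions with both assays, with the number of footprint reads above the bars and the median TE of each library as a black line. In C4 with 4-OHT, TE is 0.101 on 9 reads and lies below the library median, while in the other 7 conditions it lies at or above it.

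By the limits of the study's methods (more than 5 reads in all 4 libraries, mRNA changed under 1.5-fold, TE changed at least 3-fold), Txnip in C4 was the only member to meet the TE limit in any pair. It was 1 of 3 members that passed the read and mRNA limits in C4, the others being Arrdc4 and Mlx, and TE was at least 3-fold lower in 1.90% of 7933 genes there. The read and mRNA limits were passed only by Mlxip and Mlx in C1 and by Arrdc3 and Slc2a1 in tetO-Msi1. In KH2 they were passed by Txnip, Mlxip, Mlx and Slc2a1. None of these met the TE limit, and the remaining members could not meet it. TE was at least 3-fold lower in 38.4% of 9179 genes in C1, 0.473% of 6974 in KH2 and 0.250% of 6809 in tetO-Msi1. In tetO-Msi1, Txnip and Arrdc4 were left out by the mRNA limit. The mRNA change of Txnip in C4 was 1.45-fold, just inside it.

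With C1 and C4 as repeats, Txnip footprints had a log2 change of -1.48 with 4-OHT (SE 0.56, adjusted p = 0.341, edgeR), and Mlx footprints of 0.14 (SE 0.39, adjusted p = 0.949). These were the 2 members with more than 5 reads in all 4 libraries, and 1.27% of 9239 genes were called. TE, tested as the interaction of assay and 4-OHT over 8 libraries, changed by -1.17 for Txnip (SE 0.86, adjusted p = 0.677) and 0.48 for Mlx (SE 0.24, adjusted p = 0.579). The edgeR test called 0 (0%) of 8255 genes in TE, with 744 at an unadjusted p under 0.05, and DESeq2 called 2. C1 alone gave Txnip a TE change of 0.74 and C4 alone one of -3.05, values with no test on opposite sides of 0. No gene of the 6 pathway lists was called in footprints or TE.

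Mlx TE was 1.31 without and 0.683 with 4-OHT in C1, on 137 and 52 footprints, and 0.326 and 0.372 in C4, on 38 and 33. Mlx stood at 2.15 to 3.21 times the library median in these 4 libraries. Slc2a1 and Arrdc3 could hardly be followed, as the Ribo-Seq table lists 1 coding exon for each, of 161 and 163 nt, with 0 to 31 and 1 to 37 footprints. Slc2a1 footprints were 31 without and 3 with 4-OHT in C1, and 0 and 1 in C4. Arrdc4 had 25 and 0 footprints in C1, 12 and 15 in C4, 19 and 6 in tetO-Msi1, and 4 and 1 in KH2. Arrdc2 had 0 to 18, Mlxip 5 to 19 and Arrdc1 0 to 6, and no TE change of these 3 genes was read at this depth.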

How the data were processed

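RNA-Seq (poly(A)-selected, paired end) and Ribo-Seq reads were mapped by the authors to mouse build mm9 with Bowtie and TopHat (named in the submitters' processing notes, versions not given in the sources used here). The deposited RNA-Seq files give, per gene, a count of reads, the counted length and RPKM, and the deposited Ribo-Seq tables give a count and RPKM over coding exons, joined by Ensembl ID. Counts were tested with edgeR 4.0.16 (glmQLFit and glmQLFTest, TMM, at least 1 CPM in 2 libraries, or more than 5 reads in every library for footprints and TE, Benjamini-Hochberg over all genes, threshold 0.05), with DESeq2 1.42.0 as an alternative, in R 4.3.3. The tests were checked on simulated data in which all genes shared the same spread. That check does not cover p-values where the spread differs between genes. Single pairs, with 1 library per condition, have RPKM ratios with 95% delta-method counting intervals and no test. Reads without molecular identifiers are not independent molecules. The 2 technical replicates differed more than sampling noise (chi-square 1.69 per degree of freedom over 12524 genes) and count as 1 sample. The members and gene lists were chosen with earlier results of these data known. From each list, at most 3 genes per direction past the threshold are named, by size of change. Protein sequences were not used here. Promoters are from RefSeq (GRCm38.p6, all 8 members matched). Alternatives covered scaling, filters, blocks, left-out lines and controls.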

Additional observations from a re-analysis of the deposited data

Results flagged for a closer look

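3 member values had opposite signs in a pair of lines under the same agent, and none of these differences was tested, since each condition has 1 library. The Txnip mRNA change with 4-OHT in C4 exceeded that in C1 by a log2 of 1.74, and that of Arrdc4 by 0.65. The Arrdc3 mRNA change with Dox in tetO-Msi2 cells (0.26) exceeded that in KH2 cells (-0.20) by 0.45.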

How the results depend on the processing

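Of 425 member values under alternatives, 365 kept their side of the threshold or moved by less than their error, 34 moved further, 17 lost a call, 1 gained one (Mlx with 4-OHT without a filter, adjusted p = 0.0245) and 8 reversed. In all, 17 changed sign, the others being values without a test or with a counting interval that spans 0. With the treated control line in place of the untreated library, Slc2a1 in tetO-Msi1 at E12.5 (-0.12), Arrdc3 in tetO-Msi2 (-0.44) and, in C4, Arrdc3 (0.35) and Mlx (0.08) reversed. Arrdc3 in KH2 and tetO-Msi2, 0.03 and not called, was -0.01 without the block and -0.16 to 0.23 without 1 line. With 4-OHT, without 1 line, Txnip mRNA was -1.21 to 0.46, Arrdc4 mRNA -0.41 to 0.17 and Txnip TE -3.05 to 0.74, the mRNA values not called and the TE values with no test. Of the lost calls, 8 were Txnip in KH2 and tetO-Msi2, and others Arrdc3 (without the block, adjusted p = 0.35) and Slc2a1 (DESeq2, adjusted p = 0.0598, and 1 fit of all libraries, 0.157) with 4-OHT. With DESeq2, genes called were 103 for Msi1 (430 in edgeR), 3 for KH2 and tetO-Msi2 (96), 75 for 4-OHT footprints (117) and 2 for TE (0). Without the line or stage block they were 0 for Msi1, 0 for KH2 and tetO-Msi2, 0 for 4-OHT mRNA (639) and 2 for footprints. In 1 fit of all RNA libraries they were 1 for KH2 and tetO-Msi2 and 295 for 4-OHT. Without a filter they were 1254 for 4-OHT mRNA and 179 for footprints, and with at least 20 reads in every library 11 for KH2 and tetO-Msi2 and 199 for footprints. DESeq2 size factors in edgeR gave 13 for KH2 and tetO-Msi2, and subtracting the KH2 response left 9 for Msi1. Leaving out a stage or line gave 5 to 1153 for Msi1 (5 without E13.5), 0 to 1 for KH2 and tetO-Msi2, and 0 to 276 for 4-OHT (0 without C4). Genes changed 2-fold, at a pseudocount of 0.1 and of 2, were 22 and 5 in KH2 (10 at 0.5), 89 and 10 in tetO-Msi1 at E12.5 (36), 162 and 36 at E13.5 (98), 23 and 6 in C1 (12), and 197 and 47 in C4 (124), with 12 at 2 in tetO-Msi2 (39). Without the RPKM filter, KH2 had 18 and tetO-Msi1 at E12.5 had 58. With more than 20 reads, 13 genes met the TE limits in KH2 (77), 10 in tetO-Msi1 (88) and 16 in C4 (206), and centring gave 212 in C1 (3537). Stage could not be estimated in the fit of all libraries, where it is part of the block. Treated and untreated libraries were paired by line or stage through the block. No further pairing by replicate number was possible, because the groups compared share only number 1. The cause of these changes was not tested. Footprint depth (0 to 37 reads for Slc2a1, Arrdc2, Arrdc3 and Arrdc4) limits TE.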
